A study of Mus musculus with 18 samples.

Results

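Carboplatin in LPS-primed macrophages was taken as the comparison of 2 groups of libraries, 3 of bone marrow-derived macrophages (BMDMs) that received carboplatin with the LPS priming dose and 3 that received the priming dose alone. Its 6 libraries are chosen by their labels and are 6 of the 18 libraries of the series. BMDMs are primary macrophages grown from mouse bone marrow, here from C57BL/6 mice, in medium conditioned by L929 fibroblasts. LPS, the endotoxin of Gram-negative bacteria, was given at 100 ng/ml for 24 h in both groups, and carboplatin at 25 µM, added before the LPS, in 1 of them. Messenger RNA was sequenced and read pairs were counted per gene. The other 12 libraries, 3 each of unstimulated cells, cells given a single LPS dose of 10 ng/ml, LPS-tolerant cells (100 ng/ml followed by 10 ng/ml) and LPS-tolerant cells with carboplatin, entered the same statistical fit. The LPS-tolerant pair of groups, in which the drug was likewise added before the priming dose, also served as a second comparison in separate libraries.

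Carboplatin is a platinum drug that forms adducts on DNA, mostly crosslinks between neighbouring guanines on a strand and, less often, crosslinks between the strands. Such lesions are known to stall DNA and RNA polymerases, are repaired by nucleotide excision repair and by crosslink repair, and activate p53 and its target genes. LPS binds TLR4 and, through NF-kB and MAP kinases, switches on cytokine genes such as Tnf and Il6. BMDMs in culture include cycling cells, and LPS is known to slow their proliferation.

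The count files held between 8172462 and 9826283 read pairs assigned to genes in the libraries without carboplatin and between 6869667 and 9824097 in those with it. Read pairs that fell in no gene made 28.7 to 29.9% of all read pairs in the files without the drug and 28.5 to 29.3% with it. The macrophage markers were present in all 6 libraries, with 12 of 12 markers tested and a summed level of 38173 to 40131 counts scaled to a common library total (CPM) without carboplatin and 32386 to 36815 CPM with it. Of these 12, Adgre1, which encodes the F4/80 antigen and spans 125 kb, fell with carboplatin (log2FC -0.50, edgeR adjusted p = 0.0109), and the other 11 did not pass the test. The gene with the next smallest p was Mertk, a receptor for the engulfment of dead cells (log2FC -0.65, edgeR adjusted p = 0.0833). Defining genes of other cells were at 0 in all 6 libraries: Cd3e, Cd3d and Cd8a of T cells, Ms4a1 and Pax5 of B cells, Mpo and Ly6g of neutrophils, Hba-a1 and Alas2 of erythroid cells. The summed level was 239 to 375 CPM without and 209 to 440 CPM with carboplatin for 12 neutrophil markers, of which 5 were at 0, 12.4 to 15.3 and 10.9 to 17.8 CPM for 12 stromal markers, and 2.92 to 8.19 and 4.54 to 6.09 CPM for 10 dendritic cell markers. For B cells, T and NK cells, erythroid cells and mast cells the sums stayed at or below 3.48 CPM in every library. Libraries were paired by replicate number, which was a term of the fit because the comparison was defined with it. The deviations of same-numbered libraries from their group means correlated at 0.56, 0.51 and 0.41, and those of differently numbered libraries at -0.47 to 0.02. Deviations from a mean of 3 libraries sum to 0, so these correlations are not independent of each other. Per-sample values are given in the order of replicates 1, 2 and 3, as normalized counts, that is, counts scaled to a common library size, unless they are called raw.

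With carboplatin, 173 genes were lower and 27 were higher at an adjusted p under 0.05 (edgeR quasi-likelihood test with Benjamini-Hochberg adjustment, 11305 genes tested). These are 1.53% and 0.239% of the genes tested. At an unadjusted edgeR p under 0.05 there were 1553 in either direction. All 173 were lower in each of the 3 same-numbered pairs and all 27 were higher in each. The groups did not overlap for 156 of the 173 and 17 of the 27. The genes were called on these same libraries, so such counts describe the calls and add no separate support. The same counts over all tested genes are not given. The changes downward were larger: the log2FC, the log2 of the ratio with over without carboplatin, ran from -5.07 to -0.39 for the lower genes (median -1.13) and from 0.39 to 2.0 for the higher genes (median 0.69). At the limits the study used for carboplatin, a change of more than 2 in log2FC and an adjusted p under 0.25, 59 genes were lower and 6 were higher (0.522% and 0.0531% of those tested). These counts rest on all 6 libraries and on the pairing. Without LPS-primed replicates 1, 2 or 3 the lower genes numbered 148, 69 or 79 and the higher genes 12, 6 or 10, and without carboplatin replicates 1, 2 or 3 the lower genes numbered 95, 59 or 72 and the higher genes 8, 7 or 6. With the replicate number left out of the fit, 42 genes were lower and 0 higher, and DESeq2 without it gave 116 and 5. A fit of the 6 libraries alone, with the replicate number, called 599 genes lower and 284 higher, so the counts also depend on the other groups in the fit. The labels do not say which cultures or animals the replicates came from. The p-values measure the spread between libraries over all groups of the series, since every group entered the fit.

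Genes that occupy a long stretch of the genome made up much of what fell. Of 185 tested genes whose span from first to last base is at least 300 kb, 80 fell (43.2%, against 1.53% of all tested genes) and 0 rose. Their median log2FC was -1.03, a level 2.04-fold lower with carboplatin, and 165 of the 185 were below 0. The median was -0.83, -1.21 and -0.99 in the 3 same-numbered pairs (SD 0.19, n = 3). Among 1169 genes of 100 to 300 kb, 51 fell (4.36%), 0 rose and the median log2FC was -0.19. In the 3 shorter classes the median stayed near 0: 0.02 for the 2279 genes under 10 kb, 0.05 for the 3890 genes of 10 to 30 kb and 0.02 for the 3551 genes of 30 to 100 kb. In these classes 5, 15 and 21 genes fell and 9, 13 and 5 rose. The median span of the 173 lower genes was 268 kb and that of the 27 higher genes 18.5 kb. A span could be given to 11074 of the 11305 tested genes, from the GENCODE annotation of GRCm39.

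**Figure D1:**
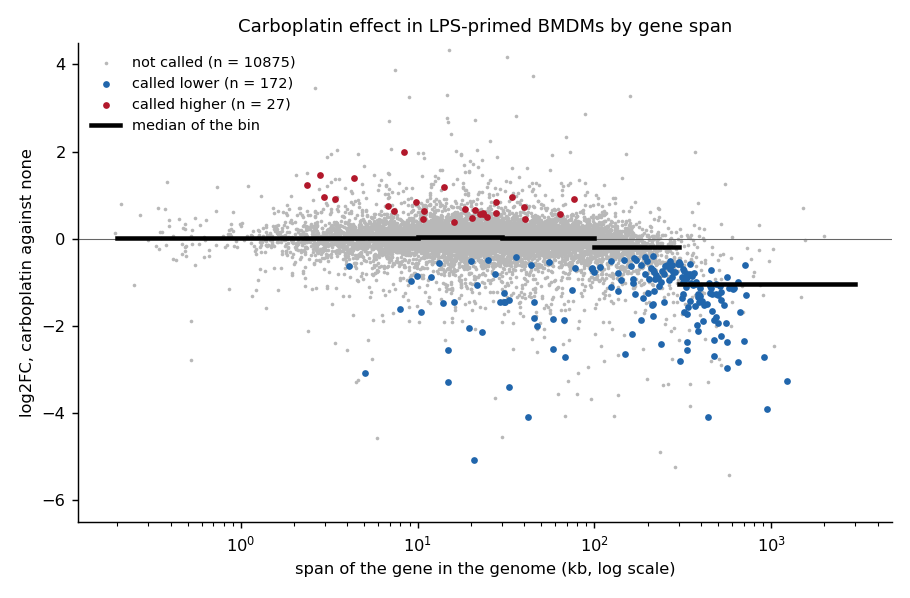
Each point is 1 tested gene, placed by its span in the genome (x axis, kb, log scale) and its log2FC with carboplatin in LPS-primed BMDMs (y axis; 1 uncalled gene lies outside the axis). Blue points were called lower, red points higher at an adjusted p under 0.05, and black bars are the medians of 5 span classes, near 0 below 100 kb, -0.19 at 100 to 300 kb and -1.03 at 300 kb and over.

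The share of all gene counts that came from genes of at least 300 kb was 0.504 to 0.614% in the 3 libraries without carboplatin and 0.348 to 0.390% in the 3 with it, so the groups did not overlap. The median was below 0 in each class of expression. Among genes of at least 300 kb, the median log2FC was -1.30 for the 93 in the lowest of 3 classes of mean CPM, -1.03 for the 63 in the middle class and -0.54 for the 29 in the highest class. For genes under 100 kb the same classes had medians of -0.02, 0.04 and 0.05. Exon length sets how many reads a transcript can give. Over 11074 genes in the same libraries, Spearman's rho with the change was, as a description, weak for each property. It was -0.04 for exon length, -0.17 for span and 0.10 for mean CPM. Genes of at least 300 kb also had longer exons (median 13.1 kb, against 6.39 kb for all tested genes), so these rho values do not separate span from exon length. Among genes with at least 6 kb of exons, 74 of 174 spanning at least 300 kb fell (42.5%). Of those under 100 kb, 19 of 4781 fell (0.397%). With the limit moved to 200 kb, 110 of 410 genes fell and the median was -0.61, and at 500 kb, 22 of 53 fell and the median was -1.12. The count of called genes of at least 300 kb was 36 without the replicate number in the fit and 45 to 69 when 1 library was left out, while the median log2FC kept its sign under every alternative.

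The 8 lower genes with the smallest p spanned 388 to 913 kb. Bcas3, a cytoskeleton-associated gene of 473 kb at chr11:85243602-85716884 (GRCm39), had normalized counts of 305, 294 and 241 without carboplatin and 58.1, 47 and 62.4 with it, so every treated library lay far below every control (5.0-fold lower; log2FC -2.32, SE 0.19, edgeR adjusted p = 5.66e-06). Slc9a9, which encodes an endosomal sodium-proton exchanger (561 kb, chr9:94551669-95112500), went from 70.9, 292 and 128 to 8.1, 37.6 and 14.1 (7.81-fold lower; log2FC -2.96, SE 0.26, edgeR adjusted p = 5.66e-06). Its level in replicate 2 was the highest of its group with and without the drug, and the groups did not overlap. Snd1, which encodes an RNA-binding nuclease (460.0 kb, chr6:28475138-28935161), is an abundant transcript whose counts were 1388, 1595 and 1476 without and 669.9, 553 and 637 with carboplatin (log2FC -1.27, SE 0.11, edgeR adjusted p = 5.66e-06). Babam2, a subunit of the BRCA1-A deubiquitinase complex that acts at DNA breaks (388 kb, chr5:31854708-32242306), fell from 572, 548 and 483 to 227, 219.9 and 186 (log2FC -1.34, SE 0.12, edgeR adjusted p = 7.6e-06). Wwox, an oxidoreductase gene known for lying across a fragile site (913 kb, chr8:115166192-116079448), fell from 139.7, 124 and 115 to 32.4, 11.3 and 16.1 (6.6-fold; log2FC -2.72, SE 0.26, edgeR adjusted p = 1.1e-05). In each of these genes all 3 treated libraries were below all 3 controls.

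The other 3 of these 8 encode regulators of the Rac GTPases, which drive the actin movements of migration and phagocytosis. Dock2, the main Rac exchange factor of blood cells (498 kb, chr11:34176815-34674798), had 2843, 3750 and 2889 without carboplatin and 1222, 1421 and 1202 with it (2.46-fold lower; log2FC -1.30, SE 0.13, edgeR adjusted p = 1.97e-05). Dock1, the exchange factor that works with ELMO proteins in engulfment (503 kb, chr7:134272372-134775375), had 345, 461 and 443 and 81, 120.3 and 124 (log2FC -1.93, SE 0.18, edgeR adjusted p = 1.1e-05). Arhgap15, which switches Rac off (647 kb, chr2:43638815-44285967), had 121, 187 and 161 and 27, 16 and 24.2 (7.06-fold lower; log2FC -2.82, SE 0.25, edgeR adjusted p = 5.66e-06). No list of Rac regulators was counted. Other genes of the same process among the 80, singled out after their values were seen, were Elmo1 (log2FC -1.41, 518 kb), Arhgap24 (-1.52, 417 kb), Vav3 (-0.57, 345 kb) and Diaph3 (-1.78, 486 kb). All 8 genes with the smallest p and Exoc4 and Smyd3 were called under all alternatives that tested them, and Slc9a9 was tested in 14 of the 15 alternatives.

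Other long genes that fell differed in the size of the change. Sox5, a transcription factor gene of 954 kb (chr6:143774151-144727703), was at 29.6, 74.1 and 53.5 and fell to 1.35, 1.88 and 8.05 (15-fold; log2FC -3.91, SE 0.68, edgeR adjusted p = 0.00473). Its normalized counts in unstimulated cells were 0, 1.64 and 9.09, so LPS-primed libraries without the drug stood above and libraries with it stood near the unstimulated level. Exoc4, a subunit of the exocyst that tethers secretory vesicles (725 kb), fell from 425, 510.4 and 543 to 177, 178 and 248 (log2FC -1.30, SE 0.15, edgeR adjusted p = 5.38e-05). Diaph2, a formin that builds actin filaments (716 kb), fell less, from 274, 575 and 654 to 226, 366 and 358, with overlapping groups (log2FC -0.61, SE 0.15, edgeR adjusted p = 0.0424). Smyd3, a lysine methyltransferase (566 kb), fell from 61.4, 57 and 82.5 to 13.5, 9.4 and 16.1 (5.14-fold; log2FC -2.36, SE 0.25, edgeR adjusted p = 2.89e-05).

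Not every long gene was called lower. The 5 longest tested genes that were not called spanned 1036 to 1998 kb. Macrod2 (1998 kb) had 9.53, 6.84 and 20.6 without and 18.9, 11.3 and 9.06 with carboplatin, a log2FC of 0.06 that changed sign when single libraries were left out. Robo2, an axon guidance receptor gene (1556 kb), had 94.2, 52.4 and 38.4 and 113, 31 and 46.3, a log2FC of -0.04 whose sign also changed with the fit. Pde4d, a cyclic AMP phosphodiesterase gene (1506 kb), had 28.6, 9.11 and 15.9 and 62.1, 10.3 and 24.2, with overlapping groups. Lrmda (1036 kb) and Magi2 (1478 kb) had carboplatin libraries of at most 3 counts each, with raw counts of 8, 9 and 7 against 2, 2 and 0 for Lrmda and of 2, 8 and 5 against 0, 3 and 3 for Magi2. Over the alternatives that tested them, the log2FC ran from -2.93 to -1.97 for Lrmda and from -1.84 to -0.55 for Magi2. For Pde4d it ran from 0.39 to 1.10. Lrmda and Magi2 were thus below 0 without passing the test, and are not shown to be unchanged. All 5 were low in these cells, Robo2 reaching the highest counts. The SWI/SNF subunit gene Arid1b (353 kb) was well expressed, with 523, 749.6 and 664 without and 471, 461 and 452 with carboplatin, and did not pass the test although the groups did not overlap (log2FC -0.47, SE 0.13, edgeR adjusted p = 0.09).

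**Figure D2:**
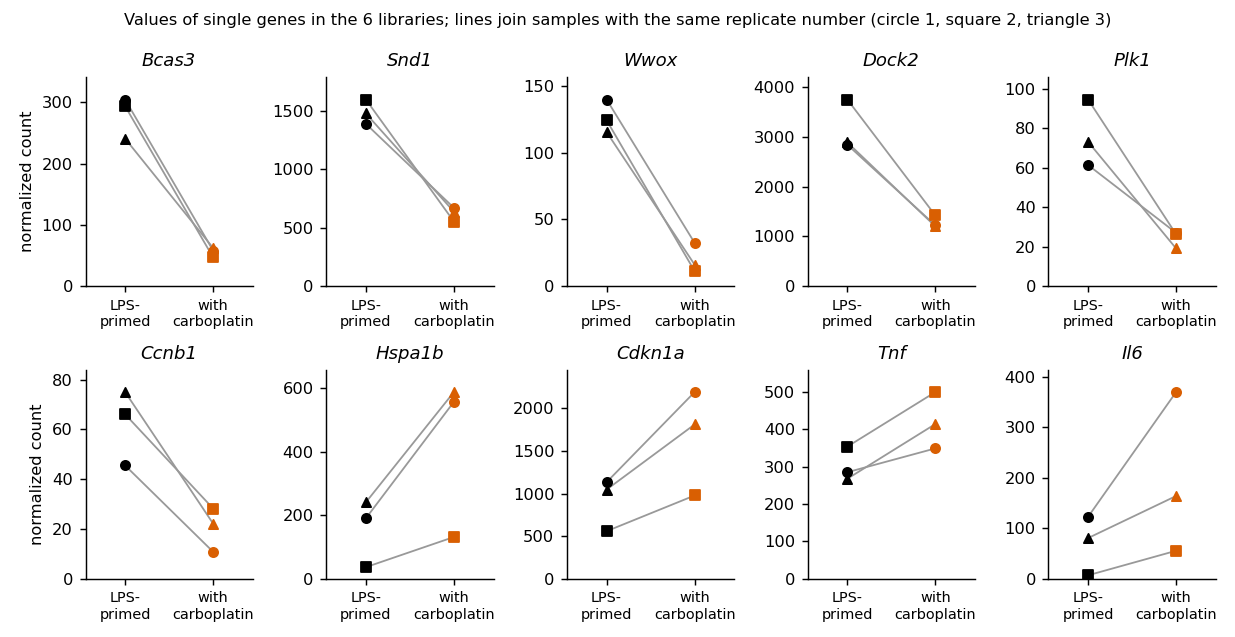
Normalized counts (y axes, from 0) of 10 genes in the 6 libraries, without (black) and with carboplatin (orange); grey lines join libraries with the same replicate number, and circles, squares and triangles are replicates 1, 2 and 3. Bcas3, Snd1, Wwox and Dock2 fell to non-overlapping levels, Plk1 and Ccnb1 fell from low levels, Hspa1b and Cdkn1a rose within each pair while their replicates differed, and Tnf and Il6 were higher in each pair without passing the test.

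Genes of cell division were also among the lower genes. Of the 59 G2/M-phase genes, a list of genes that peak late in the cell cycle, all 59 were tested, 14 fell (23.7%, against 1.53% of all tested genes), 0 rose and 50 were below 0. These 14 were among the 41 lower genes that span under 100 kb. The list's median log2FC was -1.01, against 0.01 for all tested genes, and -0.58, -0.97 and -1.20 in the 3 pairs. At the study's adjusted p of 0.25, 35 of the 59 were lower (background 5.17%) and 1 was higher. The number called depended on the fit: 1 of the 59 passed without the replicate number, 3 with limma-voom, 31 with DESeq2 and the block, 36 in a fit of the 6 libraries alone, and, with LPS-primed replicates 1, 2 or 3 left out, 17, 5 or 3, and with carboplatin replicates 1, 2 or 3 left out, 3, 2 or 3.

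Ska1, which links kinetochores to microtubules, had raw counts of 12, 15 and 17 without carboplatin and 0, 1 and 0 with it, at least 4.62-fold lower against a floor of 3 counts per library (edgeR adjusted p = 0.00264), and was called under all 14 alternatives that tested it. Spc24, a kinetochore subunit gene outside the list, had raw counts of 16, 21 and 16 and 1, 4 and 1 (log2FC -3.07, SE 0.76, edgeR adjusted p = 0.0476). Plk1, the polo-like kinase that drives mitotic entry, had 61.4, 94.6 and 73.1 and 27, 26.3 and 19.1 (3.21-fold lower; log2FC -1.68, SE 0.30, edgeR adjusted p = 0.00595). Kif2c, a kinesin that takes microtubules apart at centromeres, had 52.9, 53.5 and 57.2 and 5.4, 24.4 and 7.04 (4.42-fold lower; log2FC -2.14, SE 0.39, edgeR adjusted p = 0.00603). In all 4 genes every treated library was below every control. The mitotic cyclin gene Ccnb1 fell from 45.5, 66.1 and 75 to 10.8, 28.2 and 22.1 (3.08-fold; log2FC -1.62, SE 0.31, edgeR adjusted p = 0.0113), and Ccnb2 from 42.3, 66.1 and 53.5 to 10.8, 32 and 15.1 (log2FC -1.48, SE 0.32, edgeR adjusted p = 0.0239). Top2a, the topoisomerase that untangles chromosomes, fell from 346, 680.2 and 670.5 to 126, 273 and 222 (log2FC -1.46, SE 0.34, edgeR adjusted p = 0.0336). Cenpf, Kif11, Kif23, Anln, Nusap1, Ckap2l, Ndc80 and Tacc3 were the other 8 that fell, with log2FC from -2.0 to -1.05. Genes of the list that did not pass included the proliferation marker Mki67, at 643, 1047 and 1182 and 439, 571 and 503 (log2FC -0.93, edgeR adjusted p = 0.0934), and Cdk1, at 93.1, 149 and 111 and 70.2, 76.1 and 48.3 (-0.88, edgeR adjusted p = 0.0835). Psrc1 of the list went the other way without passing (log2FC 1.02, edgeR adjusted p = 0.239). Zwint, a kinetochore gene outside the list, was called higher (log2FC 0.48, SE 0.12, edgeR adjusted p = 0.0434). It went from 467, 452 and 315 to 633, 641 and 441, with overlapping groups.

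The promoters of G2/M-phase genes are known for carrying CCAAT boxes and the CHR element, TTTGAA or TTTAAA, through which cell cycle repressor complexes act. RefSeq windows of 250 bases before to 50 after the gene start (build GRCm38.p6) were found for 51 of the 59 genes. CCAAT stood, on either strand, in 77.2% of their 57 windows and in 37.4% of all 32851 windows, and TTTGAA or TTTAAA in 80.7% against 27.6%. Both kinds stood in 64.9% of the G2/M-phase windows and 10.7% of all. The list was built from known G2/M-phase genes, so these shares describe the list and not the response to carboplatin. Of the 13 genes with a window among the 14 that fell, 8 held CCAAT and 11 held TTTGAA or TTTAAA. The windows of the 3 G2/M-phase genes with the smallest p that have one are given 5′ to 3′, with matches on either strand in capitals. Plk1 (chr7:122159185-122159484, plus strand) has CCAAT 14 bases and TTTAAA 89 and 29 bases before the start and TTTGAA 31 bases after it. Kif2c (chr4:117178723-117179022, minus strand) has TTTAAA at 234 and TTCAAA, the reverse complement of TTTGAA, at 103 bases before the start and no CCAAT. Ccnb1 (chr13:100786437-100786736, minus strand) has CCAAT at 99 and 67 and TTTAAA at 42 bases before the start.
Plk1: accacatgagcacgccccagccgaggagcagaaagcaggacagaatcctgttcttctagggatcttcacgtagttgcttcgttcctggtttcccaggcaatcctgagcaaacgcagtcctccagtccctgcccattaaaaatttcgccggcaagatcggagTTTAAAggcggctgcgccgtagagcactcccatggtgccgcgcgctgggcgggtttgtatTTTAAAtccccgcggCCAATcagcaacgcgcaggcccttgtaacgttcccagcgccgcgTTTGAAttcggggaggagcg
Kif2c: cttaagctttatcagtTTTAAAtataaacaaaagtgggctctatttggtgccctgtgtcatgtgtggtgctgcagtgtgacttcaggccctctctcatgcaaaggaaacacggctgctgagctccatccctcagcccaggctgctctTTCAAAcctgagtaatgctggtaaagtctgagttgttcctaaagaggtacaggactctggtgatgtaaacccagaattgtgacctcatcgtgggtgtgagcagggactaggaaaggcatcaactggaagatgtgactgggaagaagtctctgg
Ccnb1: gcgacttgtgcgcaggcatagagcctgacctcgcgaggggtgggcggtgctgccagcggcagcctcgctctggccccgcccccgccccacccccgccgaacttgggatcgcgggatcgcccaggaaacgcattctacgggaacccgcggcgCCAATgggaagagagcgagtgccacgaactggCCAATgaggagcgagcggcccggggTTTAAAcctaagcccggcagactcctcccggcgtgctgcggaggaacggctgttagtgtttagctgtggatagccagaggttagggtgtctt

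Few genes of DNA replication and of the cycle's control passed the test. Of 42 tested S-phase genes, 1 fell (2.38%, close to the 1.53% of all tested genes), 33 were below 0 and the median log2FC was -0.48. That gene was Exo1, a repair exonuclease, with raw counts of 8, 31 and 8 and 2, 2 and 0, at least 5.19-fold lower (edgeR adjusted p = 0.033). Pola1, the catalytic subunit of the polymerase that primes replication (327 kb), had 34.9, 118 and 89.1 and 18.9, 50.8 and 10.1 and did not pass (log2FC -1.65, SE 0.46, edgeR adjusted p = 0.0813). By DESeq2 with the replicate number 4 of the 42 fell, and by limma-voom 0, and the edgeR count was 2 without LPS-primed replicate 1 and 0 without any other single library. DESeq2 with the replicate number called 303 of all 11305 tested genes lower. Of 39 genes of E2F factors, pocket proteins, cyclins and CDKs, 3 fell (7.69%, against 1.53%) and 1, Cdkn1a, rose (2.56%, against 0.239%). Ccnb1 and Ccnb2 were 2 of the 3, and the third was E2f7, a repressor of the E2F family, with raw counts of 5, 18 and 17 and 2, 0 and 0, at least 4.22-fold lower (edgeR adjusted p = 0.0319). In a bulk sample, fewer cycling cells and less RNA per cycling cell cannot be told apart. The summed level of the 59 G2/M-phase genes was 1059 to 1530 CPM without carboplatin and 910 to 1166 CPM with it, overlapping ranges. In unstimulated cells it was 4509 to 6789 CPM, so it was low in LPS-primed cells with or without the drug.

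**Figure D3:**
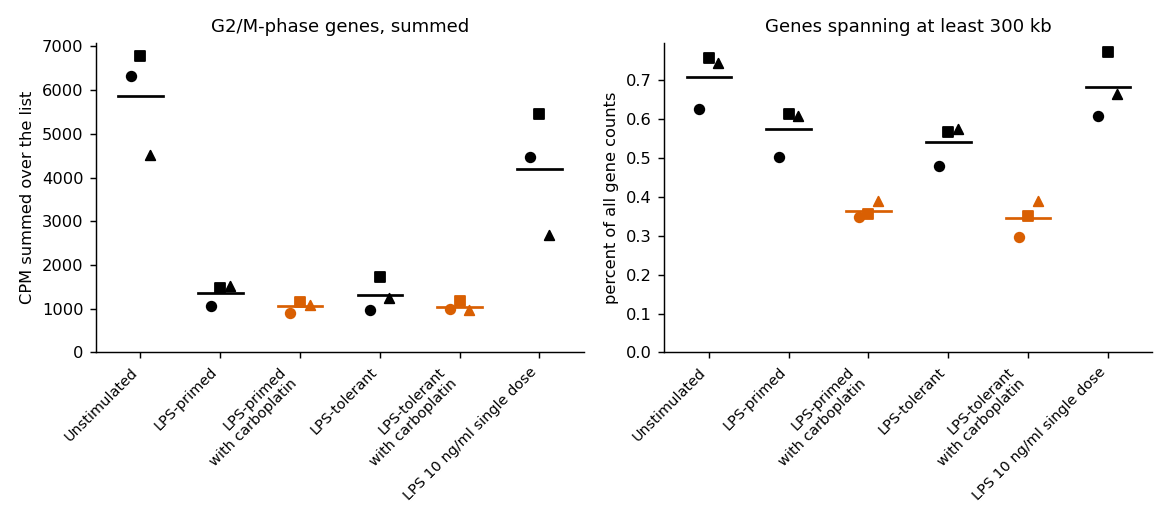
Left, CPM summed over the 59 G2/M-phase genes; right, percent of all gene counts that come from genes spanning at least 300 kb; x axes, the 6 groups of the series. Each symbol is 1 library (circle, square, triangle: replicates 1, 2, 3), bars are means of 3, and orange marks carboplatin; the G2/M-phase sum was 4509 to 6789 CPM in unstimulated and 1059 to 1530 CPM in LPS-primed libraries, and the long-gene share was lower in every library with carboplatin than in every library without it.

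The p53 target genes had a median above 0 in each pair, and 2 passed the test. Of 50 tested p53 target genes, 2 rose (4.0%, against 0.239% of all tested genes), 0 fell, 39 were above 0 and the median log2FC was 0.23 (0.22, 0.30 and 0.30 in the 3 pairs). At an adjusted p of 0.25, 9 were higher (background 2.71%) and 2 lower (background 5.17%). Their summed level was 1664 to 1803 CPM without and 1889 to 2104 CPM with carboplatin, without overlap. Cdkn1a, the p53 target that encodes the CDK inhibitor p21, had 1134, 558 and 1046 without carboplatin and 2192, 977 and 1811 with it, higher in each pair with overlapping groups (1.8-fold; log2FC 0.85, SE 0.20, edgeR adjusted p = 0.0394). Ccng1, which encodes cyclin G1, had 502, 434 and 766 and 795, 944 and 1128 (1.69-fold; log2FC 0.75, SE 0.18, edgeR adjusted p = 0.0357). Mdm2, the p53 ubiquitin ligase, had 1962, 1945 and 2504 and 3010, 2682 and 3078 and just missed the limit (log2FC 0.45, SE 0.11, edgeR adjusted p = 0.0522). Neither call for Cdkn1a nor that for Ccng1 was kept without the replicate number (edgeR adjusted p = 0.592 and 0.309), and with 1 library left out Cdkn1a passed in 0 of 6 fits and Ccng1 in 1 of 6.

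Few repair genes passed the test. Of 27 nucleotide excision repair genes, 0 passed by edgeR, DESeq2 or limma-voom on all 18 libraries, with 3 above and 3 below 0 at an unadjusted edgeR p under 0.05 (median log2FC 0.05). Of all 11305 tested genes, 1553 were under that limit. A fit of the 6 libraries alone called 2 of the 27 lower, Gtf2h2 among them, and 599 of all 11305 tested genes. The 3 with the smallest p were Mnat1, a subunit of the TFIIH-associated kinase (log2FC -0.40, edgeR adjusted p = 0.186, span 162 kb), the TFIIH subunit gene Gtf2h2 (-0.39) and the transcription-coupled repair gene Ercc6 (0.39). Of 40 genes of crosslink repair and homologous recombination, 2 fell (5.0%, against 1.53% of all tested genes), 0 rose and the median was -0.36. The count was 0 without the replicate number and by limma-voom, 3 without LPS-primed replicate 1 and 0 without any other single library. The 2 were Exo1 and Fanci, a Fanconi anaemia gene, which went from 11.6, 34.2 and 28.1 to 5.4, 4.7 and 3.02 (log2FC -2.54, SE 0.58, edgeR adjusted p = 0.0321). Of 23 checkpoint genes, 0 passed in either direction by edgeR, DESeq2 or limma-voom on all 18 libraries, with 2 above and 2 below 0 at an unadjusted edgeR p under 0.05 (median -0.04), Clspn, an activator of the kinase CHK1, having the smallest p (log2FC -1.13, edgeR adjusted p = 0.219), before the ubiquitin ligase gene Rnf8 (0.34) and the ATR activator gene Topbp1 (-0.43). A fit of the 6 libraries alone called 2 of the 23 lower, Clspn and Topbp1.

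Of 20 genes that handle platinum, other metals and glutathione, 1 rose (5.0%, against 0.239% of all tested genes). It was Gclc, the catalytic subunit of the enzyme that makes the first step of glutathione synthesis, with 214, 296 and 259.8 without carboplatin and 415, 472 and 395 with it, non-overlapping groups (1.67-fold; log2FC 0.74, SE 0.13, edgeR adjusted p = 0.00555). Its partner subunit gene Gclm had 1247, 901 and 1404 and 2181, 1598 and 1930, also without overlap, and just missed the limit (log2FC 0.68, SE 0.17, edgeR adjusted p = 0.056). Slc22a4, a transporter gene of the list, had a log2FC of 0.42 (edgeR adjusted p = 0.377). Txnrd1, a thioredoxin reductase gene chosen from the 27 after their values were seen, rose from 1953, 1872 and 1981 to 2871, 2767 and 3019 (log2FC 0.58, SE 0.13, edgeR adjusted p = 0.031).

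Of the 27 genes that rose, 4 encode heat shock proteins or their partners. They were put together after the values were seen, and no list of such genes was counted. Hspa1b, an inducible HSP70 gene, had the smallest p of the 27: 190.5, 36.5 and 241 without carboplatin and 558, 132 and 589 with it (2.78-fold higher; log2FC 1.47, SE 0.22, edgeR adjusted p = 0.0011). Its replicate 2 was low in both groups and the groups overlapped, while each pair rose. Hspa1a, its near-identical neighbour, had 163, 46.7 and 135 and 238, 110.0 and 298 (log2FC 0.96, SE 0.23, edgeR adjusted p = 0.0357), and since reads can be shared between both copies the split between them is uncertain. Hsph1, an HSP70 nucleotide exchange factor, rose from 811, 422 and 713 to 1143, 648 and 1063 (log2FC 0.56, SE 0.14, edgeR adjusted p = 0.0435), and the co-chaperone gene Bag3 from 606, 505 and 456 to 902, 746 and 682 (log2FC 0.57, SE 0.12, edgeR adjusted p = 0.0243). The heat shock element was searched, also after the values were seen, as GAA and TTC with any 2 bases between them, on either strand. It stood in 22.2% of the 27 windows that the called-higher genes have and in 7.86% of all windows, and its 5 genes were Hspa1a, Hspa1b, Hsph1, Bag3 and Polr2a. The element was searched because heat shock genes, which are known to carry it, had been seen among the 27, so the share restates that choice and describes no response. The window of Hspa1b (chr17:34959189-34959488, minus strand, GRCm38.p6) is shown as the one of the gene with the smallest p. In capitals are the element, 104 bases before the start, and the reverse complement of CCAAT, 67 bases before it.
Hspa1b: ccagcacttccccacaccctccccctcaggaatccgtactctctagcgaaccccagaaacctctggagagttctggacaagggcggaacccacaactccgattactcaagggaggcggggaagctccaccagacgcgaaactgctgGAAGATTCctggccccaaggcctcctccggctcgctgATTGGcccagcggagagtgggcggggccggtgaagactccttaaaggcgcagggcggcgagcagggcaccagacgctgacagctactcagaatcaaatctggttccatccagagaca

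The 27 included 3 genes of transcription and chromatin, a group put together after the values were seen. Polr2a, the largest subunit of RNA polymerase II, went from 2901, 3217 and 3096 to 4323, 4474 and 4198 (log2FC 0.49, SE 0.12, edgeR adjusted p = 0.0395). Setd1a, a histone H3K4 methyltransferase gene, went from 835, 761 and 757 to 1403, 1043 and 1129 (log2FC 0.59, SE 0.11, edgeR adjusted p = 0.00595), and Brd2, a reader of acetylated histones, from 3343, 2894 and 3078 to 4557, 4357 and 3862 (log2FC 0.45, SE 0.10, edgeR adjusted p = 0.0239). All 3 genes had non-overlapping groups, with changes of 1.41-fold, 1.51-fold and 1.37-fold. Of the 24 tested H3K9 methylation genes, 0 passed by edgeR, DESeq2 or limma-voom on all 18 libraries, with 4 above and 1 below 0 at an unadjusted edgeR p under 0.05 (median log2FC 0.09). That limit was passed by 1553 of all 11305 tested genes. Those with the smallest p were Cbx1, which encodes HP1-beta (0.38), Prdm2 (0.36) and Uhrf1 (-1.03), and a fit of the 6 libraries alone called Cbx1 and Prdm2 higher and Uhrf1 lower. Over all tested genes that fit called 284 higher and 599 lower. Of the 23 SWI/SNF genes, 0 passed by edgeR or limma-voom and 1 fell by DESeq2 with the replicate number and in a fit of the 6 libraries alone (1 below 0 at an unadjusted edgeR p under 0.05, median 0.05), and after Arid1b the smallest p belonged to Dpf2 (0.20) and Arid2 (0.30). Cbx5, which encodes HP1-alpha, had 31.8, 75.2 and 89.1 and 52.7, 94.9 and 84.5 (log2FC 0.26, edgeR adjusted p = 0.78), and Suv39h1, an H3K9 methyltransferase gene, 38.1, 88.9 and 76.9 and 43.2, 78 and 50.3 (log2FC -0.26, of opposite sign without LPS-primed replicate 3). Setdb2, Kdm4d and Smarcd3 were too low to be tested: Smarcd3 had raw counts of 0, 0 and 0 without and 6, 3 and 3 with carboplatin, Setdb2 3, 0 and 8 and 0, 1 and 4, and Kdm4d 0, 0 and 0 and 0, 4 and 2.

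**Figure D4:**
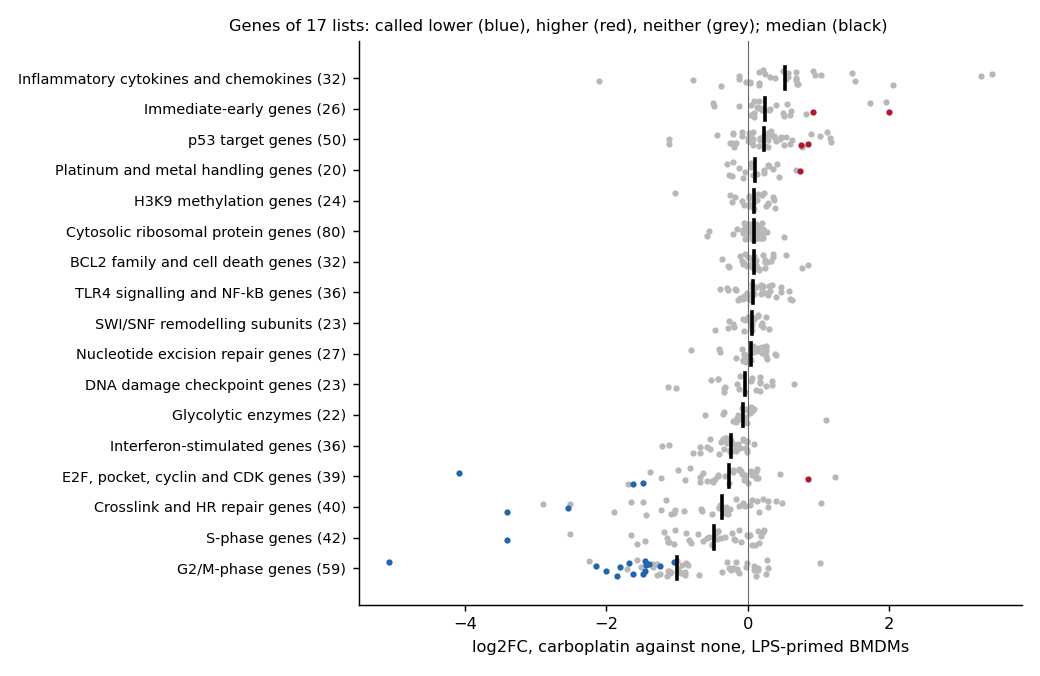
Each point is 1 tested gene of 17 lists (rows, number of tested genes in brackets), at its log2FC with carboplatin in LPS-primed BMDMs (x axis; genes at the floor are at their fitted value). Blue genes were called lower, red genes higher, grey genes neither, and black bars are medians, lowest for the G2/M-phase genes (-1.01) and highest for the cytokines and chemokines (0.52).

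Inflammatory genes had a median above 0 in each pair, and none passed the test. Of 32 tested cytokine and chemokine genes, 0 passed by edgeR, DESeq2 or limma-voom on all 18 libraries, 11 were higher at an unadjusted edgeR p under 0.05, 26 were above 0 and the median log2FC was 0.52, with 0.33, 0.53 and 0.39 in the 3 pairs. The unadjusted limit was passed by 1553 of all 11305 tested genes in either direction. At an adjusted p of 0.25, 6 were higher (background 2.71%) and 0 lower. Tnf had 285, 353 and 267 without carboplatin and 348, 499 and 414 with it (log2FC 0.50, edgeR adjusted p = 0.359). Il6 had 123, 6.84 and 80.6 and 370.1, 55.5 and 164 (1.48, edgeR adjusted p = 0.176). Both were higher in 3 of 3 pairs with overlapping groups, and replicate 2 was the lowest of each group for Il6. The smallest p of the list belonged to the neutrophil chemokine gene Cxcl2, at 4182, 1524 and 2302 and 5992, 2227 and 3392 (0.54, edgeR adjusted p = 0.138), followed by the chemokine genes Ccl3 (0.71) and Ccl4 (0.70). A fit of the 6 libraries alone, which takes its error only from them, called 12 of the 32 higher, among them Il6 with an edgeR adjusted p of 2.84e-06 and Tnf with 0.0147. Over all 11305 tested genes that fit called 284 higher.

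Of 36 TLR4 and NF-kB genes, 0 passed by edgeR or limma-voom on all 18 libraries, 2 were higher by DESeq2 with the replicate number and 6 in a fit of the 6 libraries alone, with 8 higher at an unadjusted edgeR p under 0.05 (median log2FC 0.07). Over all 11305 tested genes, DESeq2 with the replicate number called 86 higher and the fit of the 6 libraries 284. The unadjusted limit was passed by 1553 in either direction. Irak2, a kinase of the TLR pathway, had 595, 396 and 480.1 and 739, 522 and 682 (0.40, edgeR adjusted p = 0.0985), and Dusp1, a phosphatase that ends MAP kinase signals, 1300, 966 and 865 and 2091, 1429 and 1262 (0.60, edgeR adjusted p = 0.115). The LPS co-receptor gene Cd14 had 27385, 7200 and 16923 and 38823, 12109 and 26463 (0.62, edgeR adjusted p = 0.113). Of 26 immediate-early genes, 2 rose (0.239% of all tested genes rose) and the median was 0.25. These were the AP-1 subunit genes Fosl1, at 21.2, 6.84 and 15.9 and 138, 24.4 and 39.2 (4.0-fold; log2FC 2.0, edgeR adjusted p = 0.033), and Fos, at 616, 273 and 426 and 995, 736 and 749 (log2FC 0.92, SE 0.22, edgeR adjusted p = 0.0383). In both genes the groups did not overlap. Fosl1 had the largest log2FC of the 27 genes that rose, and its call was lost in each of the 6 fits that left out a library. Nr4a2, an orphan nuclear receptor gene of this list, had 1.06, 5.7 and 8.44 and 24.3, 24.4 and 15.1 and did not pass (log2FC 1.95, SE 0.56, edgeR adjusted p = 0.0924).

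Other surface and signalling genes rose. Procr, the endothelial protein C receptor gene, had raw counts of 1045, 144 and 406 and 1927, 532 and 1063 (2.63-fold; log2FC 1.40, SE 0.27, edgeR adjusted p = 0.0121), and Trem1, a receptor that amplifies inflammation, had 181, 38.7 and 71.3 and 271, 133 and 184 (log2FC 1.18, SE 0.27, edgeR adjusted p = 0.0288). In both genes replicate 1 was the highest and replicate 2 the lowest of each group, and the groups overlapped while each pair rose. Stap1, a signalling adaptor, went from 443, 209.6 and 492 to 723, 647 and 759.8 (log2FC 0.96, SE 0.19, edgeR adjusted p = 0.0122), and Phlda1 from 165, 68.4 and 67.5 to 493, 97.7 and 187 (log2FC 1.24, SE 0.28, edgeR adjusted p = 0.0288). Tuba4a, an alpha-tubulin gene, and Tes, a focal adhesion gene, had log2FC of 0.64 and 0.46 (edgeR adjusted p = 0.00513 and 0.0228).

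Of 36 interferon-stimulated genes, 0 passed by edgeR, DESeq2 or limma-voom on all 18 libraries and 1 was lower at an unadjusted edgeR p under 0.05, while 35 were below 0 (median log2FC -0.24, and -0.34, -0.17 and -0.33 in the 3 pairs). Of all tested genes 48.6% were below 0, and 1553 of the 11305 were under the unadjusted limit in either direction. Bst2, an antiviral tether, and Ifit3b had log2FC of -0.41 and -1.21 (edgeR adjusted p = 0.499 and 0.415). A fit of the 6 libraries alone called 12 of the 36 lower. Over all 11305 tested genes that fit called 599 lower and 284 higher. By edgeR, DESeq2 and limma-voom on all 18 libraries, 0 passed among 32 BCL2 family and cell death genes (median 0.08, 5 higher at an unadjusted edgeR p under 0.05), 22 glycolytic enzymes (-0.07, 1 higher and 1 lower) and 80 ribosomal protein genes (0.09, 3 higher and 1 lower). Those with the smallest p were Bcl2l11, Diablo and Ripk3 (0.85, 0.36 and 0.35), Gapdh, Ldhb and Pfkfb4 (1.11, -0.61 and -0.36), and Rpl21, Rpl6 and Rpl3 (0.51, 0.19 and -0.21). The smallest edgeR adjusted p of these 9 was 0.179, for Bcl2l11. A fit of the 6 libraries alone called 1 of the 32 higher (Bcl2l11), 1 of the 22 higher (Gapdh), and, of the 80, 1 higher (Rpl21) and 1 lower. Lower genes under 100 kb outside the cell cycle lists, chosen after their values were seen, included Psap, a lysosomal precursor, at 52000, 55178 and 51121 and 40651, 35250 and 37096 (log2FC -0.49, SE 0.11, edgeR adjusted p = 0.027), Fabp5, a fatty acid carrier, at 4327, 6854 and 5441 and 2864, 4369 and 3604 (log2FC -0.61, SE 0.13, edgeR adjusted p = 0.0228), and Csf3r, the G-CSF receptor gene and 1 of the neutrophil markers, at 1414, 2128 and 1416 and 975, 1484 and 1008 (log2FC -0.52, SE 0.13, edgeR adjusted p = 0.0455). These are abundant transcripts, and they fell 1.41-fold, 1.53-fold and 1.43-fold.

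The same drug was given to LPS-tolerant cells, whose 6 libraries are separate from the 6 above, though same-numbered replicates may share a source. There 162 genes were lower and 38 higher (1.43% and 0.336% of those tested). Of the 173 genes lower in LPS-primed cells, 104 were also called lower in LPS-tolerant cells, 60.1% of the first list and 64.2% of the second, and 170 were below 0, against 49.1% of all tested genes. Of the 27 higher, 8 were also called higher (29.6% and 21.1% of the lists) and 27 were above 0. No gene was called in opposite directions. The 112 genes called in both states became 30 without the replicate number, and 97, 66 or 65 without LPS-primed replicates 1, 2 or 3 and 82, 55 or 63 without carboplatin replicates 1, 2 or 3. The genes of at least 300 kb had a median log2FC of -1.03 in LPS-tolerant cells too, with 79 of 185 lower. Of the G2/M-phase genes, 16 fell there, with a median of -0.94. Among the genes named above, the tolerant log2FC was -3.15 for Slc9a9, -1.17 for Snd1, -2.19 for Plk1 and 1.64 for Hspa1b (edgeR adjusted p = 9.57e-06, 2.13e-05, 0.000689 and 0.00044). For Stap1 and Tes it was 0.06 and 0.03, and for Il6 0.34.

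**Figure D5:**
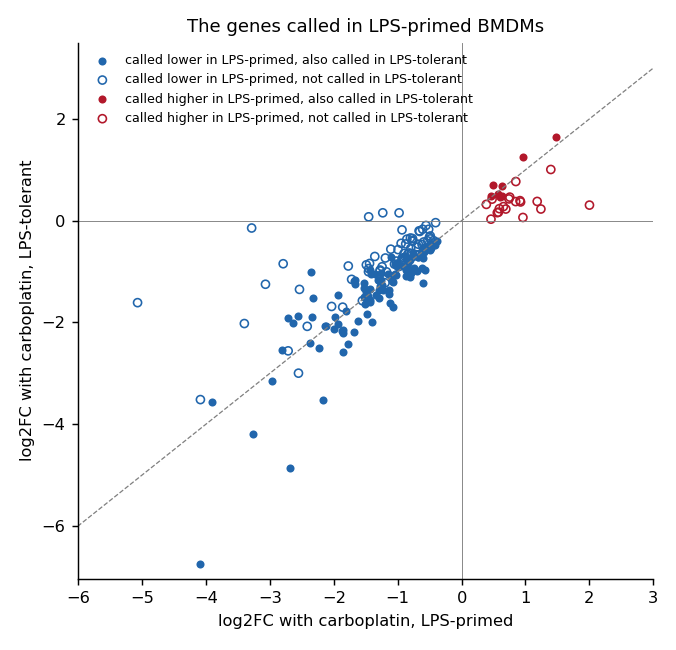
The 200 genes called in LPS-primed BMDMs, with their log2FC with carboplatin in LPS-primed (x axis) and in LPS-tolerant BMDMs (y axis). Filled points were also called in LPS-tolerant cells, open points were not, blue is lower and red is higher in LPS-primed cells, and the dashed line marks equal values; 104 of the 173 blue and 8 of the 27 red points are filled.

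Whether the effect of carboplatin differed between the tolerant and the primed state was tested directly. By edgeR, 0 of 11305 genes differed at an adjusted p under 0.05, 330 had an unadjusted p under 0.05, and the smallest adjusted p was 0.704, for Stfa3. Limma-voom and DESeq2 with the block also gave 0, with 302 and 330 at the unadjusted limit. Smyd3 was among the 6 with the smallest p: it fell from 59.5, 57.9 and 51.5 to 32.8, 25 and 26.6 in LPS-tolerant cells (log2FC -1.02), less than in LPS-primed cells (-2.36), and the difference of 1.34 did not pass. The genes called in 1 state and not in the other were therefore not shown to differ between the states.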

How the data were processed

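The deposited files hold raw counts of read pairs per gene symbol, made by the authors from paired-end reads of stranded poly(A) libraries with HISAT2 and HTSeq on GRCm39, as the submitters' processing notes name them. Versions, gene annotation and the strand setting are not given in the sources used here. Summary lines (no feature, ambiguous, low quality, not aligned, not unique) were removed. Totals were 6869667 to 14708099 read pairs, and intervals and floors cover counting error only.

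All 18 libraries were fitted in edgeR 4.0.16 (R 4.3.3, limma 3.58.1) with TMM scaling, a mean per group and the replicate number as an additive block, after filterByExpr (minimum count 10, minimum total 15). This left 11305 of 22852 genes. Same-numbered libraries deviated together (correlations 0.56, 0.51 and 0.41). The study itself used DESeq2 with no block stated. Genes were called at a Benjamini-Hochberg adjusted p under 0.05 by the quasi-likelihood test, SE is the size of the log2FC over the root of F, and a gene at 3 or fewer counts in every library of a group is given as a bound. DESeq2 1.42.0, limma-voom, other scalings and filters and the omission of single libraries were alternatives. The fit was tested on simulated data.

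Spans came from GENCODE vM39 and promoter windows from RefSeq (GRCm38.p6). Genes were named by a rule: the 8 smallest p and 5 largest log2FC in each direction, 3 members per list, the 5 longest called and uncalled genes, the 6 smallest p for the difference between states, and 10 genes that the study names. Members, lists and rule were chosen with earlier results of these data known. A few genes that this rule names are not reported here.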

Additional observations from a re-analysis of the deposited data

Results flagged for a closer look

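For 8 of the 102 named genes that were tested, all 3 same-numbered pairs of LPS-primed libraries moved one way with carboplatin and all 3 pairs of LPS-tolerant libraries the other way. The log2FC in LPS-tolerant minus that in LPS-primed cells was -1.86 for Stfa3 and -1.13 for Csta2, cysteine protease inhibitor genes, -1.10 for Cdc42bpa, a kinase gene of the cytoskeleton, -0.47 for Irak2, -0.84 for Rpl21, 2.22 for Treml1, 2.15 for Magi2 and 4.07 for Gm17748. None passed the edgeR test of the difference (adjusted p = 0.704 for Stfa3 and 1 for the others). Stfa3, Csta2, Cdc42bpa, Treml1 and Gm17748 were named because their p for this difference was among the smallest, so opposite pairs say little for them. No such count was made over all tested genes, so 8 of 102 cannot be set against a background. The 8 genes, Irak2 and Rpl21 included, were therefore not shown to differ between the states. The counts of Magi2 and Gm17748 were at most 3 per library in LPS-primed cells with carboplatin.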

How the results depend on the processing

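Without the replicate block, 0 genes were higher and 42 lower, 30 passed the study's limits and 30 were called in both states, against 27, 173, 65 and 112. A fit with the block of the groups compared alone gave 284 higher, 599 lower, 429 in both states and 1 gene that differed between the states. DESeq2 with the block gave 86, 303 and 206, and without it 5 higher. At an adjusted p under 0.25 there were 306 higher, 584 lower and 368 in both states, and with a limit of 1 on the log2FC 278 genes passed the study's other limit. Without an expression filter 42 genes were higher and the median of genes of at least 300 kb was -0.71, it was -0.61 at 200 kb, and with at least 10 counts in every sample 8 genes passed the study's limits. Leaving out 1 library gave 6 to 12 higher, 59 to 148 lower, 36 to 69 genes past the study's limits and 55 to 97 in both states. Calls that were lower made 86.5% of all calls, 100% without the block, 67.8% in the fit of the groups alone and 77.9% by DESeq2 with the block. All 36 called named genes kept their direction in the 15 alternatives that tested them, and 11 were called in each. Uncalled genes near 0 changed sign: leaving out 1 library gave -0.56 to 0.0506 for Suv39h1 (the highest without LPS-primed replicate 3), -0.29 to 0.69 for Macrod2 and -0.41 to 0.21 for Robo2, and Robo2 was at 0.0277 by edgeR and 0.0330 by DESeq2 without the block. The cause of these shifts was not tested.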
